A study of Mus musculus with 4 samples.

Results

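The genes described here encode the enzymes that add and remove histone acetyl, histone methyl and DNA methyl groups, with a few proteins that bind methylated DNA or complete an enzyme complex. They were chosen by name as 34 genes, and all 34 had a transcript on the arrays, out of 19938 genes with a transcript assigned to them alone. Here a transcript means a row of the array, that is, a set of probes reported together. Rows that share a gene symbol need not be separate RNA forms. Expression was measured with Affymetrix whole-transcript arrays in total RNA of dissected hippocampus from male C57BL/6JJmsSlc (B6) mice, whose age is labelled as 11 to 12 weeks. In the R-SDS group (2 arrays), B6 mice had met an aggressive ICR male for 10 min on each of 10 days and stayed beside it behind a board for the rest of the day, which is called repeated social defeat stress. Control mice (2 arrays) were kept in pairs in a divided cage, exchanged every day, without defeat. The study describes the stressed mice on the arrays as susceptible, meaning that they avoided an unfamiliar ICR mouse, whereas the sample labels give the stress only. The labels name no transgene and no drug in either group.

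Lysine acetylation loosens the contact of histones with DNA and goes with active transcription. Acetyltransferases write it and histone deacetylases (HDACs) erase it. DNA methyltransferases (DNMTs) methylate cytosine in CpG dinucleotides, TET dioxygenases oxidise the methyl group, and several proteins with a methyl-CpG-binding domain (MBD) read it. Methylation of lysine 9 of histone H3 by EHMT and SETDB1 enzymes, and of lysine 27 by Polycomb repressive complex 2 (PRC2), goes with silent genes. In hippocampal neurons this machinery is known for its part in memory and in lasting responses to stress.

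The spread of the values on an array went with the replicate number. The interquartile range of the log2 values was 3.34 and 3.37 in the number 1 arrays (Control, then R-SDS), but only 3.06 and 3.11 in the number 2 arrays. The labels do not say what a replicate number stands for, and for this reason each difference was also computed for the pair of arrays with number 1 and for the pair with number 2, always as the stressed minus the control mouse. Below, values of a gene are given as log2 RMA values, for the controls first and then for the stressed mice, number 1 before number 2. The dissected tissue carried hippocampal markers, since all 4 dentate granule neuron markers and all 5 measured markers of CA pyramidal neurons lay above the median of measured genes on the value scale. Markers of the choroid plexus, a tissue within the brain ventricles, were higher in R-SDS 1 than the control mean by a median of 2.81. They stood at -0.19 in R-SDS 2 (7 of 7 measured). The log2 of their summed level was 11.61 and 8.89 for the controls, compared with 13.65 and 9.57 for the stressed mice. In the same way, the median was 0.40 and -0.0837 for endothelium, 0.33 and -0.0258 for astrocytes, and 0.29 and 0.12 for dentate granule neurons. For the 4 liver transcripts listed it was -0.97 and -0.87. Serpina1c and Alb were lower in both stressed mice, with group differences of -1.99 and -1.70. Fgg and Apoa1 differed by only -0.0039 and -0.12, and their groups overlapped. Pyramidal neuron markers stood at 0.22 and -0.0726, oligodendrocyte markers at 0.0037 and -0.14, microglia markers at 0.0053 and -0.0051, and the 2 measured markers of dividing cells at 0.23 and -0.0546. Against the control of the same number, the medians were 0.16 and 0.15 for astrocytes, and 0.29 and 0.085 for endothelium. They were 2.49 and 0.079 for choroid plexus, 0.17 and 0.25 for dentate granule neurons, and 0.017 and 0.12 for pyramidal neurons. For oligodendrocytes they were -0.094 and -0.020, for microglia 0.00011 and 0.00011, for dividing cells 0.30 and -0.12, and for liver -0.92 and -0.90. The part of these markers in the values below was not tested, and in whole tissue fewer cells of a type and less RNA per cell cannot be told apart.

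The comparison asked whether transcripts of this machinery differ in the hippocampus after defeat. Differences were small throughout. Among the 34 genes the log2 difference (R-SDS minus Control) ran from -0.12 for Crebbp to 0.30 for Dnmt3b, and 19 genes had a lower and 15 a higher mean in R-SDS mice. Over all genes, 46.5% had a lower mean. The median difference was -0.018 over the 34 genes and 0.0089 over all genes. Its values within number 1 and number 2 were -0.019 and 0.020, so it changed sign between the pairs of arrays.

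No gene of the machinery passed limma at an adjusted p of 0.05, and none passed at an unadjusted p of 0.05. The counts were 0 of 34 by both rules, where 0% and 0.983% of all genes passed. With Benjamini-Hochberg adjustment of the limma p-values over all 21789 transcripts, the adjusted p was 1 for each of the 34. The smallest unadjusted limma p was 0.0909, for Dnmt3b (exact permutation of 2 arrays against 2 cannot go below 0.333, two-sided). In 33 of the 34 genes the difference was smaller than its own standard error, as it was for 81.7% of all genes. The median absolute difference was 0.043, against 0.074 over all genes. None of the 34 differed by more than 0.5, the log2 threshold of the study's array comparison, and 0.762% of all genes did.

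These values do not show that the genes were alike in both groups. The 95% intervals of the differences, from limma's moderated standard errors and taken gene by gene, had a median half-width of 0.34. For 29 genes the interval lay within 0.5 on either side of zero. The other 5 were Dnmt3b, Tet2, Hdac8, Hdac5 and Hdac7. The interval of Dnmt3b ran from -0.0648 to 0.67, and that of Tet2 from -0.73 to 0.66. The fit took no account of the replicate number, so a difference between the numbers also widens an interval. For Tet2 the number 2 arrays exceeded the number 1 arrays by 0.62, while its differences within the numbers were -0.15 and 0.075.

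**Figure D1:**
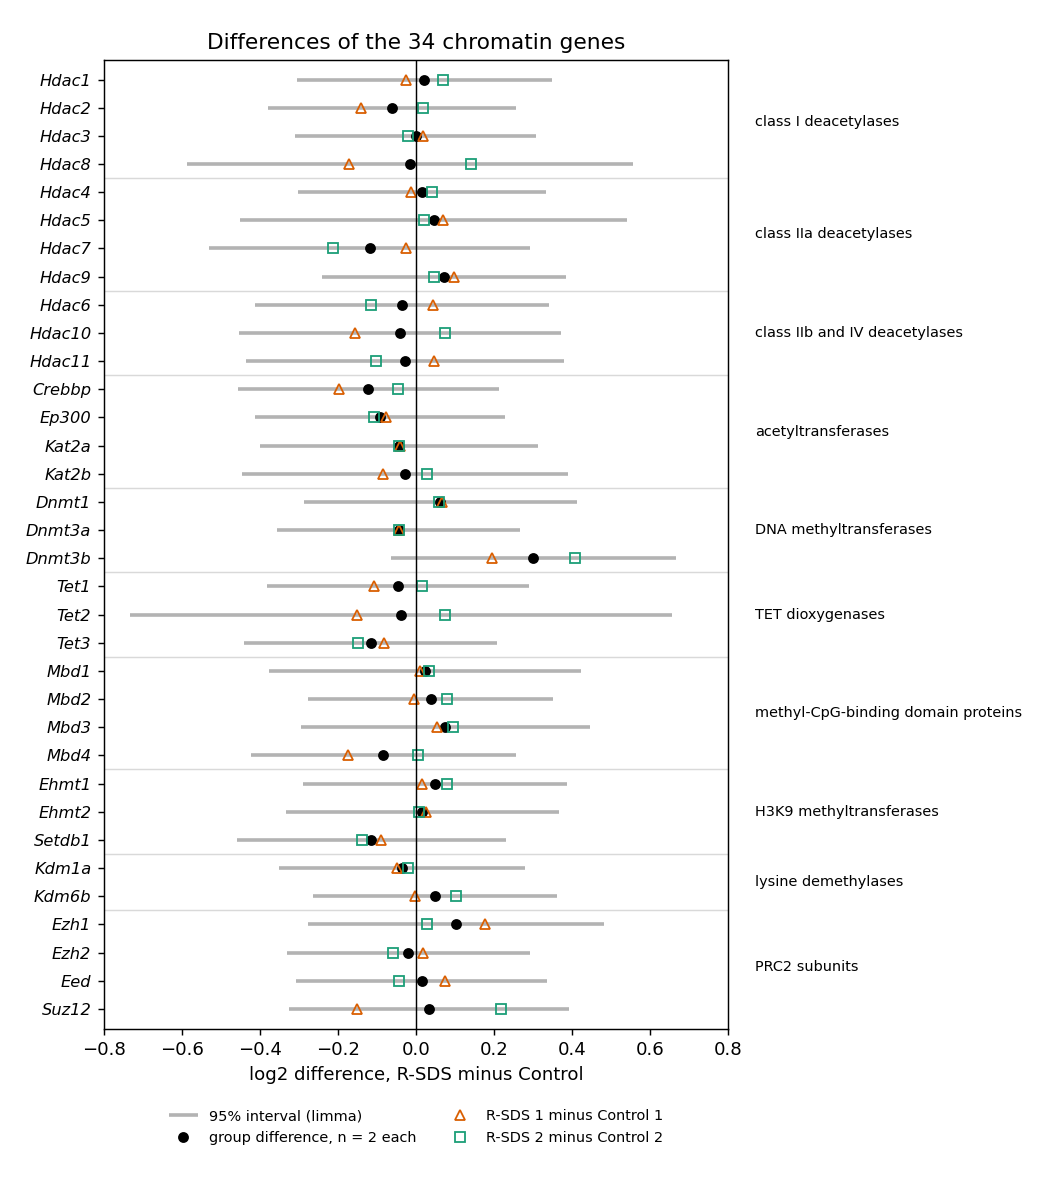
Log2 difference between R-SDS and Control (horizontal axis) for the 34 genes (vertical axis), grouped by function, with the group difference of 2 arrays against 2 as a black dot, its 95% limma interval as a grey bar and the differences within number 1 (triangle) and number 2 (square) as open symbols. Every interval includes zero, and Dnmt3b lies farthest from it at 0.30.

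For 5 genes the values of the groups did not overlap, 2 higher (Dnmt3b and Hdac9) and 3 lower (Crebbp, Ep300 and Tet3) in R-SDS mice. Over all genes, 18.3% did not overlap (9.52% higher and 8.81% lower), so the share among the 34 was near the background.

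Dnmt3b encodes a de novo DNA methyltransferase, which methylates DNA that carried no methyl group before. It measured 5.07 and 5.13 in controls, and 5.26 and 5.54 after defeat. Both stressed mice were above both controls, and R-SDS 2 stood farther from them than R-SDS 1. Controls averaged 5.10 ± 0.044 (SD, n = 2) and stressed mice 5.40 ± 0.19 (SD, n = 2). The difference was 0.30 (SE 0.15, limma adjusted p = 1), or 1.23-fold. The difference was 0.19 within number 1 and 0.41 within number 2, and it was 0.16 without R-SDS 2 and 0.44 without R-SDS 1. Of all genes, 97.4% had a lower difference than Dnmt3b. Dnmt3b was picked as the largest difference of the machinery genes, and the top of such a list ranks high by selection alone. No conclusion is therefore drawn from this rank. The Dnmt3b transcript was dim, with values near the lower quartile of the tested transcripts (4.99), and the table holds no detection call. After a further quantile normalisation of the arrays its difference was 0.33 with an unadjusted limma p of 0.0357, and still no adjusted p under 0.05.

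Hdac9, a class IIa deacetylase that works mainly as a scaffold for other repressors, had values of 8.26 and 8.33 without stress, and of 8.36 and 8.38 with it. The groups were separate, but the gap between the higher control and the lower R-SDS mouse was narrower than the distance between the controls. Its difference was 0.072 (SE 0.13, limma adjusted p = 1).

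The acetyltransferase genes Crebbp and Ep300 encode CBP and p300, paralogous co-activators that many transcription factors recruit. Crebbp measured 10.23 and 10.26 in controls, and 10.03 and 10.21 after defeat. Most of its difference of -0.12 (SE 0.14) came from R-SDS 1, and without that array it was -0.0316. Ep300 measured 9.18 and 9.28 in controls, and 9.10 and 9.17 after defeat. R-SDS 2 lay just below Control 1, and the difference of Ep300 was -0.092 (SE 0.13), with -0.076 within number 1 and -0.11 within number 2. Both genes had a limma adjusted p of 1.

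Tet3, the TET enzyme gene that neurons are known to regulate with activity, had values of 7.94 and 8.08 without stress, and of 7.86 and 7.93 with it. Its difference was -0.12 (SE 0.13), within number 1 -0.083 and within number 2 -0.15. A second array row of Tet3 did not follow, with 7.16 and 7.03 in controls, 7.06 and 7.16 after defeat and a difference of 0.019.

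**Figure D2:**
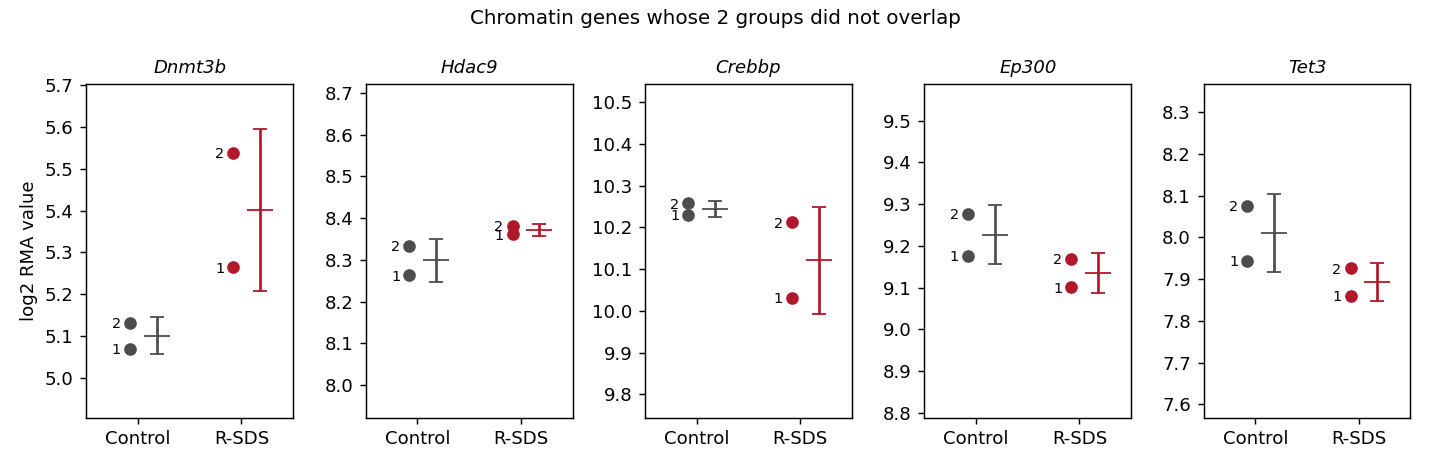
Values of the 5 genes whose groups did not overlap, in log2 RMA units on vertical axes of equal span, with 1 point per array and its replicate number, and, beside the points, the group mean with its SD (n = 2). Dnmt3b shows the widest gap between the groups, and each of the 5 gaps is narrower than the distance between the 2 mice of at least 1 group.

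The DNA in front of 3 of these genes is shown because CpG dinucleotides, the substrate of the enzyme that Dnmt3b encodes, are spread very unevenly among them. The sequences are from RefSeq (GRCm38.p6), read 5′ to 3′ on the strand of the gene up to the base before its outermost annotated start, with each CG in capitals.
Dnmt3b (chr2:153649199-153649410, plus strand): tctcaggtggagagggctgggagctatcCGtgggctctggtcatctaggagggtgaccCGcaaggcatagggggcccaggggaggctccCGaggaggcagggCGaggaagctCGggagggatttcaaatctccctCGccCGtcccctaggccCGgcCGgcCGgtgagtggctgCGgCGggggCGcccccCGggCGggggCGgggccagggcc
Ep300 (chr15:81585964-81586208, plus strand): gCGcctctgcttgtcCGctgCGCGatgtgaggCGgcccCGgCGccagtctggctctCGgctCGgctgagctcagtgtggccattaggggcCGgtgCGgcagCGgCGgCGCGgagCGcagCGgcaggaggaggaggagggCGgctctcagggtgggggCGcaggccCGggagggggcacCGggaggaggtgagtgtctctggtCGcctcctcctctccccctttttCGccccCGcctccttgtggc
Hdac9 (chr12:34917096-34917345, minus strand): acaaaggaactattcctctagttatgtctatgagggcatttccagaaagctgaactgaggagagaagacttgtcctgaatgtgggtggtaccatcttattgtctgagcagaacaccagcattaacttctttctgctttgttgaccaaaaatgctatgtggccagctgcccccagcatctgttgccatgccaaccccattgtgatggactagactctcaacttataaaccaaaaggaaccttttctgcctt
The stretch of Dnmt3b holds 16 CG in 212 bases and that of Ep300 24 CG in 245 bases, while that of Hdac9 holds 0 in 250 bases. A window of the 250 bases before an annotated start was found for 28 of the 34 genes (38 windows), and these windows held a median of 17 CG against 6 over all 32851 windows of that length. The range among the 34 genes was wide, from 0 at Hdac9 to 51 at Tet2. The GC box GGGCGG, on either strand, was in 23 of the 38 windows (60.5%) and in 32.7% of all windows. The cyclic AMP response element TGACGTCA, a palindrome bound by CREB, the factor after which CBP is named, was in 0 of the 38 and in 1.55% of all windows. A match describes the letters only, and neither methylation nor binding was measured here.

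Among the class I deacetylases, of which HDAC1, HDAC2 and HDAC3 are the catalytic cores of nuclear co-repressor complexes, 1 gene had a higher and 3 a lower mean. Hdac1 differed by 0.022, Hdac2 by -0.061, Hdac3 by -0.0010 and Hdac8 by -0.016. Hdac1 and Hdac2, whose products share the same complexes, each moved in opposite directions in the pairs of arrays, with -0.0251 and 0.068 for Hdac1 and -0.14 and 0.019 for Hdac2. Hdac3 was the steadiest, at 9.24 in both controls, and at 9.26 and 9.22 after defeat. A further array row of Hdac1 differed by -0.0051.

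The class IIa deacetylases, which leave the nucleus when calcium signals phosphorylate them, had 3 higher and 1 lower mean, and their median difference was 0.030. Besides Hdac9, Hdac4 differed by 0.015, Hdac5 by 0.045 and Hdac7 by -0.12. Hdac7 measured 6.84 and 7.19 in controls, and 6.81 and 6.98 after defeat. The R-SDS 2 value fell between the controls, which lay farther apart than the group means. A second transcript of Hdac4 was lower in both R-SDS mice (7.62 and 7.66) than in the controls (7.81 and 7.76), by -0.14. Hdac6, a mainly cytoplasmic tubulin deacetylase, Hdac10, a polyamine deacetylase, and Hdac11, the single class IV enzyme, had lower means, by -0.036, -0.040 and -0.029. In each of these 3 the sign differed between number 1 and number 2.

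All 4 acetyltransferase genes had lower means in R-SDS mice, with a median difference of -0.067 (-0.081 within number 1 and -0.0452 within number 2). Of the group, Kat2a (GCN5) differed by -0.043 and Kat2b (PCAF) by -0.029. The signs of Kat2a and Kat2b turned without single arrays, at up to 0.048 and 0.14. By limma, 0 of the 4 passed at an unadjusted p of 0.05. Among 9 further acetyltransferase genes, listed for comparison, 6 had a lower and 3 a higher mean, with a median difference of -0.0019.

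Of the other DNA methylation genes, Dnmt1, the maintenance methyltransferase, differed by 0.063 (SE 0.14) and Dnmt3a, the main de novo enzyme of mature neurons, by -0.044 (SE 0.13). The differences of Dnmt3a were nearly equal in number 1 (-0.044) and number 2 (-0.045), and those of Dnmt1 as well (0.065 and 0.060). They were smaller than the spread between mice all the same, since R-SDS 2 (7.6919) lay just above Control 1 (7.6913) for Dnmt3a. All 3 TET genes had lower means, by -0.046 for Tet1, -0.038 for Tet2 and -0.12 for Tet3, but Tet1 and Tet2 were higher in R-SDS 2 than in Control 2. On the arrays 3 rows carried the symbol Tet1. The dimmest of them differed by -0.28 (SE 0.16), with 6.33 and 6.07 in controls, and 5.81 and 6.02 after defeat. Within number 1 this row differed by -0.52 and within number 2 by -0.0483, so its lower mean rested on number 1.

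The MBD genes had 3 higher and 1 lower mean. Mbd1, Mbd2 and Mbd3, which encode repressors or co-repressor subunits, differed by 0.022, 0.037 and 0.075, and Mbd4, which encodes a glycosylase that repairs deaminated CpG, by -0.084. Mbd4 was lower by -0.17 within number 1 and level within number 2 (0.0063).

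Among the genes for histone methylation, Ehmt1 (GLP) differed by 0.048 and Ehmt2 (G9a) by 0.017, and their products act as a heterodimer. Setdb1, the H3K9 methyltransferase of retroelement silencing, measured 7.41 and 7.59 in controls, and 7.32 and 7.45 after defeat. It was lower in the R-SDS mouse of each number, by -0.091 and -0.14, yet R-SDS 2 exceeded Control 1, and the group difference was -0.11 (SE 0.14). The demethylase genes Kdm1a (LSD1, a flavin-dependent enzyme) and Kdm6b (JMJD3, which removes the PRC2 mark) differed by -0.035 and 0.050.

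Of the PRC2 genes, 3 had a higher and 1 a lower mean, and each difference was below its standard error. Ezh1, the catalytic subunit typical of mature cells, differed by 0.10 (SE 0.16), Ezh2, that of dividing cells, by -0.020, and the core subunits Eed and Suz12 by 0.015 and 0.033. Ezh1 measured 9.37 and 9.24 in controls, and 9.55 and 9.26 after defeat, so that R-SDS 1 alone was above both controls. Suz12 was lower by -0.15 within number 1 and higher by 0.22 within number 2. A second, dimmer transcript of Eed was lower in both R-SDS mice, by -0.11.

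Many of these genes differed more between the replicate numbers than between the groups, in a share near that of all genes. In 25 of the 34 the difference between the numbers (mean of both number 2 arrays minus mean of both number 1 arrays) was larger in size than that between the groups, a share of 73.5% against 72.6% over all genes. The median size of the number difference was 0.13 for the 34 genes and 0.16 for all genes.

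The widest was that of Tet2, which is known from blood cells as a regulator of stem cells and is expressed in neurons too. Its number 1 arrays read 7.29 (Control) and 7.13 (R-SDS), its number 2 arrays 7.79 (Control) and 7.87 (R-SDS). The number 2 mice exceeded the number 1 mice by 0.62, whereas the groups differed by -0.038 (SE 0.28). The number difference was larger in size than in 98.4% of all genes. Tet2 was picked as the widest of the machinery genes, so a high rank follows from the selection, and no conclusion is drawn from it.

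Hdac8, an X-linked deacetylase gene whose product acts on cohesin, followed the same order, with 7.46 and 7.29 in number 1 (Control, then R-SDS) against 7.76 and 7.90 in number 2. Its number difference was 0.46. In both genes the number 2 arrays were the high ones and the numbers did not overlap.

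Hdac5 went the other way, with 8.84 and 8.91 in number 1 against 8.47 and 8.49 in number 2, a number difference of -0.39. Kat2b, with 6.47 and 6.38 in number 1 against 6.13 and 6.16 in number 2, differed by -0.28. Hdac11, with 9.48 and 9.52 against 9.29 and 9.19, differed by -0.26. Here the number 1 arrays were the high ones, whatever the group. A further quantile normalisation left these differences between the numbers at 0.67 for Tet2, 0.52 for Hdac8, -0.32 for Hdac5, -0.38 for Kat2b and -0.20 for Hdac11. What the number stands for was not tested, and these differences are given without a test.

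**Figure D3:**
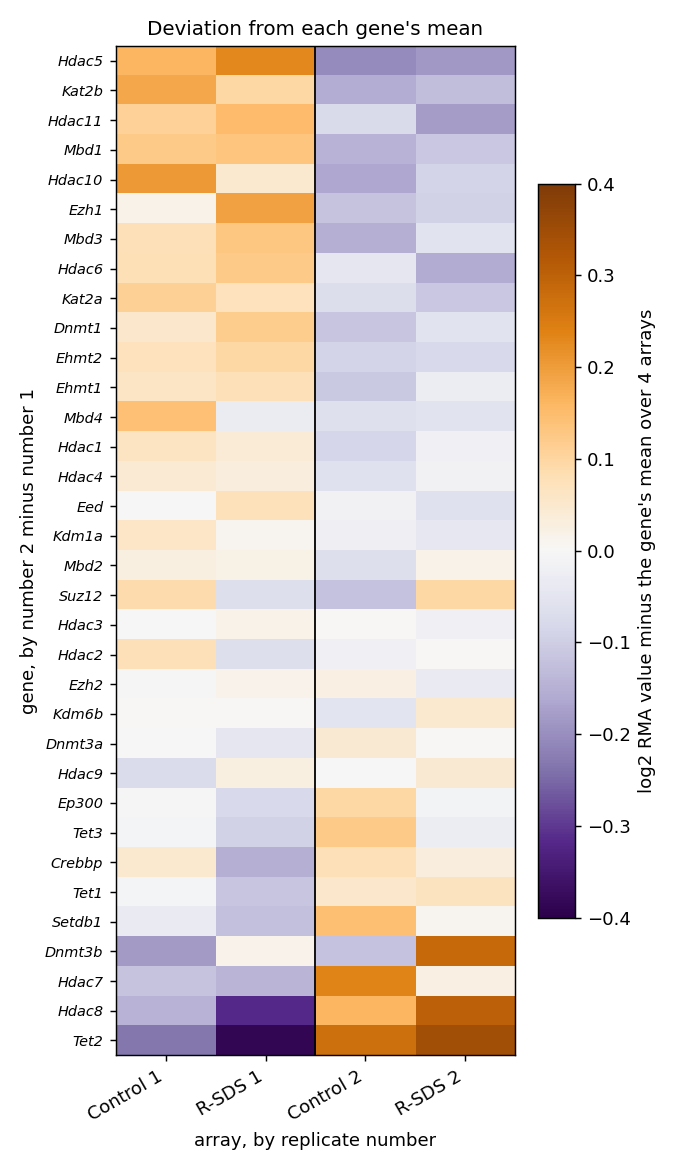
Log2 RMA value minus the mean of the gene over the 4 arrays (colour) for the 34 genes (rows, ordered by number 2 minus number 1) in the 4 arrays (columns, ordered by replicate number). Tet2 and Hdac8 are low in both number 1 arrays and high in both number 2 arrays, Hdac5 shows the reverse, and Dnmt3b is high in R-SDS 2 and low in both controls.

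For comparison, 97 further genes of chromatin enzymes and their partners were listed, of which 89 were measured. By limma 0 of the 89 passed at an unadjusted p of 0.05 (background 0.983%) and 0 at the adjusted p. The groups did not overlap for 6 higher and 5 lower genes, against 18.3% of all genes, and the median difference was -0.0032. Lower means were found for 51 of the 89 genes. Their 8 sublists had median differences between -0.056 (histone methyltransferases, 15 of 21 with a lower mean) and 0.052 (DNA methylation cofactors and repair, 6 of 9 with a higher mean), which were not tested.

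The largest differences among these genes belonged to Gadd45b, Kmt2c, Rcor1 and Mtf2. Gadd45b, an activity-induced gene tied to DNA demethylation, measured 7.46 in both controls, and 7.83 and 7.54 after defeat, a difference of 0.23 (SE 0.15). Rcor1, which encodes the CoREST partner of LSD1, measured 7.42 and 7.44 in controls, and 7.72 and 7.55 after defeat, a difference of 0.20 (SE 0.14). Both were separate between the groups and higher in R-SDS 1 than in R-SDS 2. Of the 2 stressed mice, R-SDS 1 also had the higher median, against the control mean, in every marker list except liver. The part of those markers was not tested. Kmt2c, an enhancer H3K4 methyltransferase gene, differed by -0.22 (SE 0.23), and Mtf2, a PRC2 accessory gene, by -0.18 (SE 0.21). For Kmt2c and Mtf2 the groups overlapped, and number 2 exceeded number 1 by 0.47 and 0.36. All 4 genes had a limma adjusted p of 1.

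**Figure D4:**
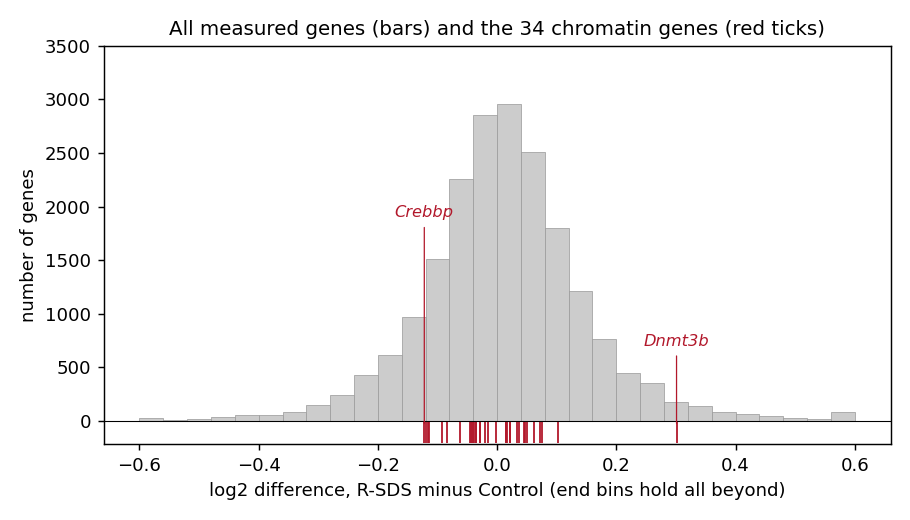
Number of genes (vertical axis) by log2 difference between R-SDS and Control (horizontal axis) for all 19938 genes as grey bars, with the 34 genes as red ticks below the axis. The ticks lie between -0.12 (Crebbp) and 0.10 (Ezh1), apart from Dnmt3b at 0.30.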

How the data were processed

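Log2 values of 4 arrays were analysed, as deposited by the authors after RMA (background subtraction, normalisation and probe summary) in Affymetrix Expression Console, per the labels. The 4 columns did not share 1 distribution, and which arrays went through RMA together is not stated in the sources used here. No genome build, detection call or depth came with the values. Their precision is limited by how few arrays there are.

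The platform annotation gave 1 gene symbol for 21789 of 35556 rows, several for 1621 and none for 12146. Groups and replicate numbers came from the sample titles. The study's methods give 2 mice for the R-SDS arrays, and no source used here says whether mice shared a cage, litter or day, so a p-value reflects only how far these samples spread. Each gene was represented by its row with the highest mean (5 of the 34 genes had several rows), and all 34 symbols matched RefSeq by Entrez identifier.

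The groups were compared by limma 3.58.1 in R 4.3.3 (lmFit, eBayes, no block, no filter, two-sided, Benjamini-Hochberg over all 21789 rows, threshold 0.05; 2 residual and 4.07 prior degrees of freedom). The procedure was tested on simulated data with independent errors and no difference between replicate numbers, which checks the code only. Arrays were named in full for genes that did not overlap between groups, for the 5 largest group differences and for the 5 largest differences between numbers. Among the further genes, those past an unadjusted p of 0.05 and the 4 with the largest differences were named. Other transcripts of a gene and other values by array were chosen after they were seen. The genes, lists and alternatives were chosen with earlier results of these data known. Plots used matplotlib 3.10.9.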

Additional observations from a re-analysis of the deposited data

How the results depend on the processing

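At the adjusted p, 0 of the 34 genes and 0 of the 89 further genes were called under any alternative. The smallest adjusted p of any of the 34 was 0.960, with the replicate number as a block. With 2 arrays a group, effects within the intervals of the reported fit are not excluded. Over all transcripts, the count at the adjusted p was 0 to 49 when 1 array was left out (49 without R-SDS 2) and 1 with each array centred on its median. At an unadjusted p of 0.05 it was 221 transcripts, 1047 with the block, 346 after quantile normalisation (205 higher and 141 lower, against 102 and 119), 33 with the filter on dim transcripts, 440 by the methods' t-test and 227 to 843 without single arrays (843 without R-SDS 2). Of the 34 genes, 0 passed it in the reported fit and 1, Dnmt3b, with the block and after quantile normalisation. Of all 21789 transcripts, 221, 1047 and 346 passed it in the same settings. By the methods' t-test 0 of the 34 and 2 of the 89 (Kmt5b and Nsd2, named after their values were seen) passed it. So did 440 of the 21789 transcripts by that test. The unadjusted limma p of Dnmt3b with the block was 0.0340. The labels do not say that a number pairs the mice. Deviations of same-numbered arrays correlated at 0.517 across transcripts.

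The filter at the median of all transcripts (6.55) kept 30 of the 34 genes and removed Dnmt3b, Eed, Kat2b and Mbd4, which left 1 gene higher without overlap. With the mean of all transcripts of a gene, 5 genes were lower without overlap, since Hdac4 and Eed joined, and their differences turned to -0.0629 and -0.0484. With centred arrays Hdac3 and Hdac8 turned to 0.016 and 0.00097, the further genes without overlap were 3 higher and 1 lower, and their median was 0.014; after quantile normalisation it was -0.013. Centring raised the median difference of all transcripts from 0.0072 to 0.024. Without single arrays the genes without overlap numbered 2 to 17 higher and 7 to 12 lower among the 34, and 16 to 31 and 21 to 29 among the 89, where a group of 1 array separates more easily and, in limma, was assumed to vary like the other group. The medians were then -0.0375 to 0.0416 and -0.0266 to 0.047. The share of all genes without overlap, 18.3%, is given only for the reported values with all arrays. It does not apply to the counts without overlap under these alternatives. Those counts therefore have no background here, and no conclusion is drawn from them. The sign held without any single array for 9 of the 34 genes, with the ranges Hdac2 (-0.11 to -0.0146), Hdac9 (0.0368 to 0.11), Crebbp (-0.21 to -0.0316), Ep300 (-0.14 to -0.0423), Dnmt3a (-0.0668 to -0.0216), Dnmt3b (0.16 to 0.44), Tet3 (-0.18 to -0.0504), Setdb1 (-0.20 to -0.026), Kdm6b (0.022 to 0.0775), and turned for 25, with the ranges Hdac1 (-0.0527 to 0.0959), Hdac3 (-0.019 to 0.017), Hdac8 (-0.32 to 0.29), Hdac4 (-0.0346 to 0.0644), Hdac5 (-0.16 to 0.25), Hdac7 (-0.29 to 0.0566), Hdac6 (-0.18 to 0.10), Hdac10 (-0.22 to 0.14), Hdac11 (-0.20 to 0.14), Kat2a (-0.13 to 0.0483), Kat2b (-0.20 to 0.14), Dnmt1 (-0.0234 to 0.15), Tet1 (-0.14 to 0.0447), Tet2 (-0.40 to 0.33), Mbd1 (-0.11 to 0.16), Mbd2 (-0.00664 to 0.0811), Mbd3 (-0.0379 to 0.19), Mbd4 (-0.19 to 0.0179), Ehmt1 (-0.0371 to 0.13), Ehmt2 (-0.0716 to 0.10), Kdm1a (-0.074 to 0.00392), Ezh1 (-0.0411 to 0.24), Ezh2 (-0.0442 to 0.00415), Eed (-0.0502 to 0.0805), Suz12 (-0.0719 to 0.14). The causes were not tested.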
